A study of Mus musculus with 8 samples.

Results

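The genes of DNA replication and deoxynucleotide synthesis were followed across 8 RNA-seq libraries of purified cardiomyocytes, the contracting cells of the heart. The 47 members are a list of gene names, which no measured value enters, although it was drawn up with earlier results of these data known. They cover origin licensing, the replicative helicase, the polymerases, the sliding clamp and the enzymes that make deoxynucleotides. All 47 were found among the 48440 entries of the deposited count table. The pups were C57BL6/J mice taken on postnatal day 2, and the labels name no treatment and no engineered allele. Each of 4 litters gave 1 male and 1 female heart, so that there are 4 male and 4 female libraries and each litter has n = 2. The sexes are the study's own groups, and litters are its replicate numbers. The labels do not say how the cardiomyocytes were purified.

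To copy a genome once per division, a cell first loads the MCM helicase onto origins with the help of the origin recognition complex, CDC6 and CDT1, a step called licensing. In S phase CDC45 and the GINS complex turn the loaded helicase on, primase and the polymerases copy the strands, and the PCNA ring, placed by replication factor C, holds the polymerases on DNA. Ribonucleotide reductase, thymidylate synthase and thymidine kinase supply the deoxynucleotides. Mouse cardiomyocytes still copy their DNA in the first days after birth and then mostly leave the cell cycle, often with a pair of nuclei. Many of these genes are switched on before S phase by the E2F transcription factors.

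Library totals ran from 14226342 to 24910243 counts, and the members took 743.5 to 1297 CPM of them in total. CPM is the count of a gene scaled to a common library total, after TMM scaling for composition. All 47 members passed the low-count filter, as did 13771 genes in all. The sum of 8 cardiomyocyte marker genes, such as Tnnt2 and Myh6, was 63573 to 87284 CPM, while 8 endothelial markers summed to 15.96 to 148 CPM, 8 fibroblast markers to 32.4 to 243 CPM and 7 macrophage markers to 3.12 to 8.59 CPM. Xist counts matched the labelled sex in all 8 libraries. Both the number of libraries and counting error limit precision, and low counts were found for Orc1, with 9 to 48 a library, and Pole2, with 22 to 107. Nothing in the labels says more of how pups of a litter were handled, so a litter cannot be told apart from its handling. Litter p-values set the litters against the spread between the male and female of a litter, after a common sex difference. They do not measure how far repeated samples of a litter would vary. Sex p-values measure the spread between hearts of the same sex.

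Most replication genes differed between litters. Their litter means were lowest in litter 3 for 44 of 47 members and highest in litter 1 for 41, with 5 highest in litter 4 and Orc3 highest in litter 3. In the litter test, edgeR's quasi-likelihood test of the 3 litter terms beside sex with Benjamini-Hochberg adjustment, 35 of 47 members (74.5%) passed an adjusted p of 0.05, against 32.1% of all genes tested. Against the mean of the other 3 litters, 38 members were lower in litter 3 (80.9%, background 14.8%) and 0 were higher (background 13.6%). The median member changed by -0.70 on the log2 scale, with single members from -1.32 for Pole2 to 0.10 for Orc3, while the median of all genes tested was 0.00. In litter 1, 27 members were higher (57.4%, background 7.86%) and 0 lower (background 5.41%), with a median log2 fold change of 0.49. In litters 2 and 4 neither edgeR nor DESeq2 called a member in either direction, against backgrounds of 3.3% higher and 0.879% lower in litter 2 and 4.71% higher and 5.8% lower in litter 4. At an unadjusted p under 0.05, 5 members were higher in litter 2 (10.8% of all genes) and 6 in litter 4 (14.1% of all genes), shares close to those over all genes. On that measure 0 were lower in litter 2 (7.12% of all genes) and 0 in litter 4 (13.6% of all genes). Likewise 0 members were higher in litter 3 (19.4% of all genes) and 0 lower in litter 1 (13.3% of all genes), and DESeq2 called 0 in those directions. Each litter serves as a control for the others, so the 4 comparisons share libraries. In bulk RNA, fewer cells that replicate their DNA and less of these RNAs per cell cannot be told apart.

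The highest and the lowest litter were the same for most members, while the order of the litters between them varied. Of the 47, 41 had their highest litter mean in litter 1 and their lowest in litter 3, against 14% of all genes tested. Both libraries of litter 3 lay below the other 6 for 38 members (background 16.4%), and both libraries of litter 1 lay above the other 6 for 19 (background 8.89%). Taken sex by sex, the male of litter 3 was the lowest of 4 males for 43 members, and the female of litter 3 the lowest of 4 females for 42. Over all genes tested these shares were 31.2% and 32.9%. Both held for 40 members (20.5% of all genes). The male of litter 1 was the highest of the males for 37 members (22.5% of all genes) and the female the highest of the females for 36 (24.9%), and both held for 29 (12.5%). Litter took a median of 85.03% of a member's sum of squares on the log2 scale, against 70.4% over all genes tested. The difference between the highest and lowest litter mean had a median of 0.88 on the log2 scale among members and 0.37 among all genes tested. It was at least 1 for 18 members (38.3%, against 11.2% of all genes tested) and under 0.5 for 13 (27.7%, against 65.6%).

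How far these calls rest on single litters or libraries was measured directly. Without litter 3, 6 members passed the litter test (12.8%), which is close to the 13.7% of all genes that passed there. Without the male of litter 3, 20 members were lower in litter 3 (background 8.02%) and 20 passed the litter test (background 24.1%). Without its female, 33 were lower (background 6.96%) and 30 passed (background 21.8%). In litter 1, 4 members were higher without its male (background 1.62%) and 9 without its female (background 1.98%). These backgrounds, the shares of all genes called in the same fits, were lower than with all 8 libraries. DESeq2 called 31 members in the litter test (background 24.6%) and 33 lower in litter 3 (background 11.1%). With litter 3 left out, litter 1 was above the mean of litters 2 and 4 in 44 of 47 members, and 7 passed (14.9%, background 4.13%). These were Gmnn, Mcm6, Pola1, Prim1, Rrm1, Rrm2 and Tyms. With library size alone as the scaling, 37 members were lower and 0 higher in litter 3, while over all genes the split moved to 12.3% lower and 17.6% higher. In litter 4 that split moved to 10.9% lower and 1.9% higher, with 0 members in either direction. Thinning all libraries to the total of the shallowest one, the female of litter 3, left 37 members lower in litter 3 (background 14.4%). Without litter 1, 9 members were higher in litter 2 (background 6.84%) and 3 in litter 4 (background 3.26%), and without litter 4, 2 were higher in litter 2 (background 3.86%). Without litter 3, 3 members were lower in litter 4 (background 8.29%).

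**Figure D1:**
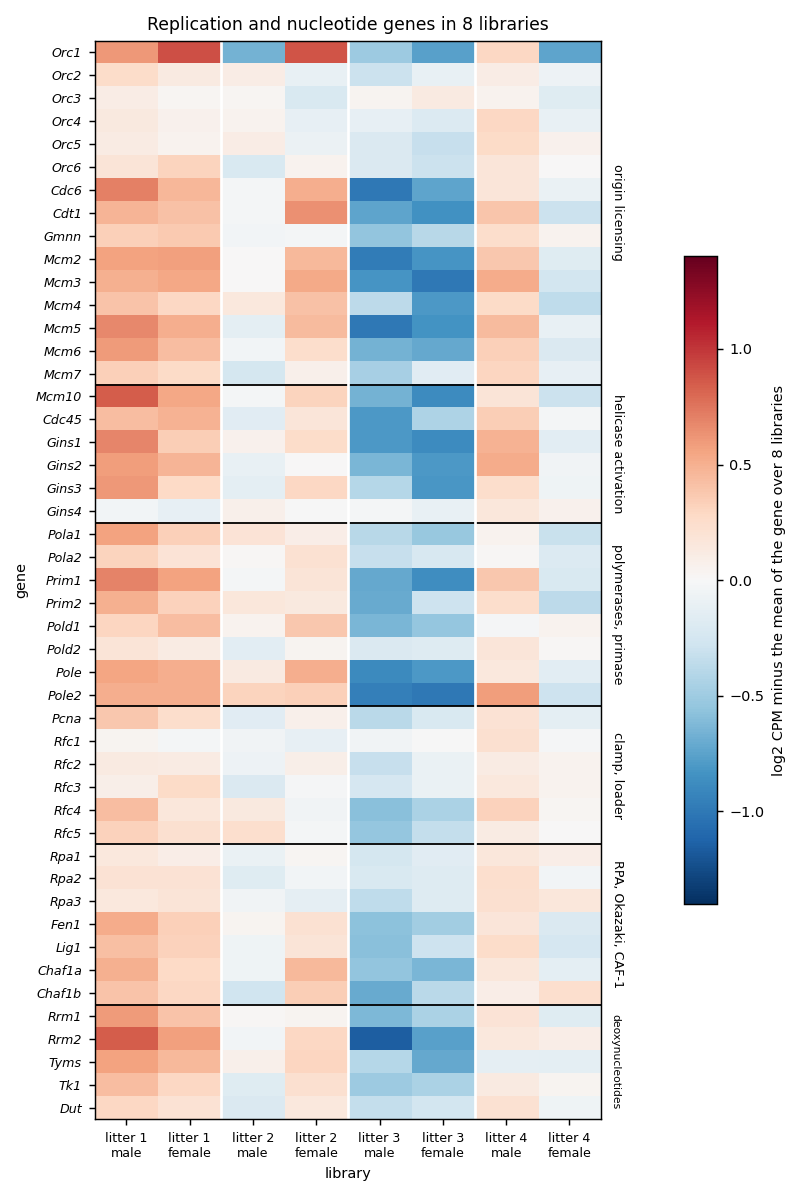
Each of the 47 genes (rows, by role) in each of 8 libraries (columns), as log2 CPM minus the gene's mean over the libraries. The columns of litter 3 are mostly blue and those of litter 1 mostly red, while Orc3, Gins4 and Rfc1 are nearly white throughout.

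Markers of other cells moved between litters as well. In litter 3, 5 of 8 endothelial, 6 of 8 fibroblast and 5 of 8 mural markers (genes of the smooth muscle cells and pericytes around vessels) were lower, with medians of -1.44, -1.91 and -1.56 on the log2 scale, and 4 of 8 cardiomyocyte markers were lower with a median of -0.18. In litter 1, 4 of 8 cardiomyocyte markers (median 0.18) and 3 of 8 fibroblast markers (median 0.36) were higher, while 1 of 8 mural markers was higher and 1 lower and no endothelial marker passed. In litter 2, where no member passed, 8 of 8 endothelial (median 2.14), 6 of 8 fibroblast (median 0.97) and 4 of 8 mural markers were higher. In litter 4, 6 of 8 fibroblast markers were higher (median 0.62), 3 cardiomyocyte markers were higher and 2 lower, and 2 mural markers were higher and 1 lower. These litters enter the mean that litter 3 was set against. Over all genes tested, 7.86% were higher and 5.41% lower in litter 1, and 3.3% and 0.879% in litter 2. These shares were 13.6% and 14.8% in litter 3, and 4.71% and 5.8% in litter 4. Beside them, a single call in a list of 5 or 8 markers is not read as a shift. Summed endothelial markers were 17.9 CPM in the male and 19.6 CPM in the female of litter 3, and elsewhere spanned 15.96 to 148 CPM. Summed fibroblast markers reached 51.8 CPM in the male and 32.4 CPM in the female of litter 3, against 108 to 243 CPM elsewhere. For mural markers these sums were 920.0 and 897 CPM against 1337 to 1515 CPM. The erythroid sum was highest in the male of litter 3, at 531 CPM, against 98.5 to 246 CPM elsewhere, and 2 of 6 tested erythroid markers were higher in litter 3 (median 0.94). The epicardial sum was 23.5 CPM in the male and 23.2 CPM in the female of litter 3, against 13.8 to 18.3 CPM elsewhere, with 1 of 5 tested markers higher and 1 lower. Of 7 macrophage markers only Cd68 passed the filter, Fcgr1 had 0 counts in every library, and C1qa, C1qb and C1qc had at most 4. Fibroblast and mural sums, like the member sums, were lowest in the libraries of litter 3, while endothelial sums were in another order. The male of litter 1 had the lowest endothelial sum, 15.96 CPM, together with the highest member sum, 1297 CPM, and the female of litter 2 had the highest endothelial sum, 148 CPM, with a member sum of 1099.9 CPM. The part that fibroblast, mural, endothelial, epicardial or erythroid RNA has in the low values of litter 3 or the high values of litter 1 was not tested.

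**Figure D2:**
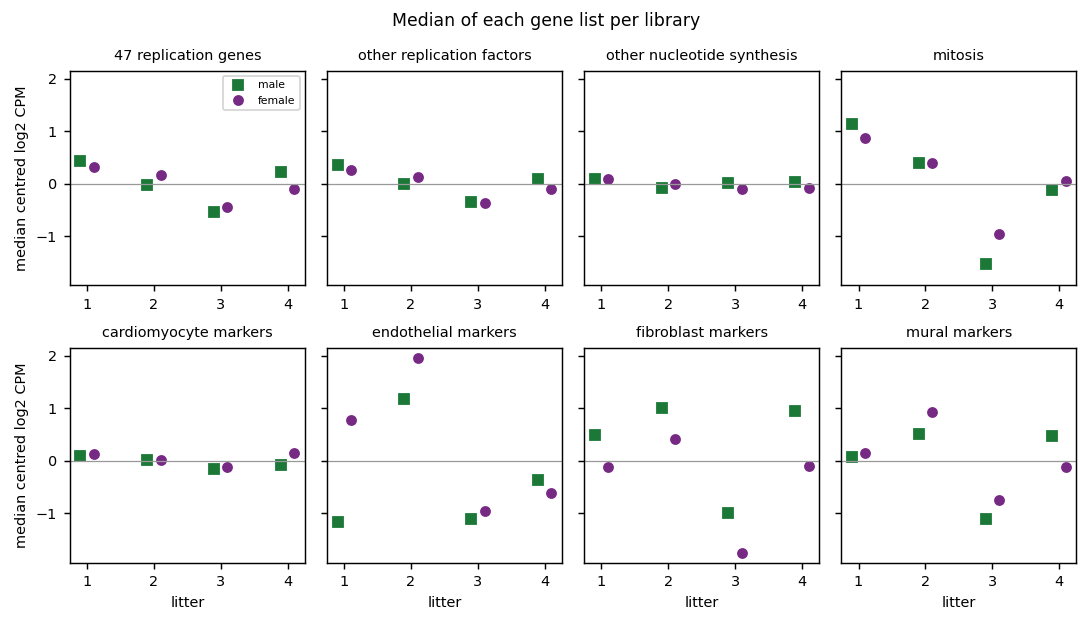
Median over each gene list of log2 CPM centred on the gene's mean over 8 libraries (y axis), by litter (x axis), with males as squares and females as circles. The 47 replication genes run from 0.43 in the male of litter 1 to -0.54 in the male of litter 3. Mitotic genes span a wider range. The fibroblast and mural lists are lowest in litter 3 as well, while the endothelial list has a different order.

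Licensing genes had litter 3 log2 fold changes from -1.24 for Mcm5 to 0.10 for Orc3. Of 15, 10 were lower in litter 3, and 8 were higher in litter 1. Mcm2 (chr6:88883474-88898780 on GRCm38), a subunit of the ring-shaped helicase, had 61.3, 41.6, 21.2 and 53.8 CPM in the males of litters 1 to 4 and 61.9, 57.1, 23.4 and 36.99 CPM in the females. Both litter 3 libraries lay below all others, and both litter 1 libraries above all others. Its log2 fold change in litter 3 was -1.22 (SE 0.15, adjusted p = 1.59e-04) and in litter 1 0.75 (SE 0.13, adjusted p = 0.00337), in edgeR's quasi-likelihood test as for all adjusted p-values here. In litter 3 it thus stood at 43.1% of the other litters. Its litter 1 value ran from 0.38 to 0.97 over 18 alternatives. With litter 3 left out that value was 0.38 (SE 0.13, adjusted p = 0.110), which did not pass. The remaining subunits of the ring were lower in litter 3 as well, Mcm3 at -1.23 (SE 0.20, adjusted p = 9.02e-04), Mcm5 at -1.24 (SE 0.18, adjusted p = 4.57e-04), Mcm6 at -0.93 (SE 0.13, adjusted p = 2.92e-04) and Mcm4 at -0.77 (SE 0.15, adjusted p = 0.00248). Mcm7 had the change of smallest size among the 6, -0.42 (SE 0.12, adjusted p = 0.0256). Of the sequence of Mcm7, 12.3% is shared with Ap4m1 or Gm5487, measured as windows of 100 bases that also occur in another annotated gene on either strand, so that part of its count is uncertain.

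The loading factors were lower in litter 3 too. Cdc6, which brings the helicase to the origin, had 5.25, 3.16, 1.60 and 3.63 CPM in males and 4.44, 4.58, 1.92 and 3.02 CPM in females of litters 1 to 4, and was lower in litter 3, at -1.18 (SE 0.24, adjusted p = 0.00349). Cdt1, its partner in loading, was lower at -1.07 (SE 0.21, adjusted p = 0.00298), and in litter 1 its value was 0.56 (SE 0.18, adjusted p = 0.0555). In litter 2 the female had 19.6 CPM of Cdt1, the highest of all libraries, and the male 12.4. Gmnn (chr13:24751845-24761937) encodes geminin, which binds CDT1 and keeps origins from being licensed again in the same cycle. It had 37.3, 28.8, 20.2 and 35.1 CPM in males and 38.1, 29.03, 22.6 and 30.6 CPM in females, again with litter 3 below and litter 1 above the other 6. Its change in litter 3 was -0.63 (SE 0.08, adjusted p = 2.75e-04), and litter took 95.7% of its variance, the highest share of any member.

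The origin recognition complex, which marks origins, held the member with the narrowest litter range, Orc3. Orc3 (chr4:34566781-34614963) had 50.3, 47.7, 48.03 and 48.6 CPM in males and 47.8, 40.5, 50.9 and 41.7 CPM in females. The female of litter 3 had the highest value of the 8 libraries and the male lay inside the range of the others, and its adjusted p was 0.325 in the litter test. Its litter 3 value was 0.10 (SE 0.08, adjusted p = 0.336), and it ran from -0.027 to 0.24 over 18 alternatives. Orc2, Orc4 and Orc6 had log2 fold changes of -0.28, -0.21 and -0.33 in litter 3, and these 3 did not pass the threshold. Orc5 was lower at -0.35 (SE 0.09, adjusted p = 0.0113), a call lost in 3 of 18 alternatives, with adjusted p-values from 0.00811 to 0.107. Orc1, the subunit that in other cells comes and goes with the cell cycle, had 1.60, 0.665, 0.737 and 1.28 CPM in males and 1.97, 1.93, 0.619 and 0.629 CPM in females. Its value in litter 3 was -0.87 (SE 0.45, adjusted p = 0.175). The pups of litter 2 differed, with 16 counts in the male and 43 in the female. Reads of Orc2 may be shared with Nif3l1, since 19.1% of its windows occur there.

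Helicase activation genes were lower in litter 3 in 5 of 6 cases. CDC45 and the 4 GINS subunits make the loaded ring an active helicase, and MCM10 takes part in starting it. Gins1 (chr2:150909556-150931280) had 8.74, 5.69, 3.12 and 7.64 CPM in males and 6.94, 6.52, 2.96 and 4.91 CPM in females, a change of -1.14 (SE 0.19, adjusted p = 0.00123) in litter 3. Litter 3 lay below all others, while in litter 4 the male stood near the litter 1 libraries and the female well under them. Gins2 had 11.2, 6.90, 4.77 and 10.6 CPM in males and 10.3, 7.46, 4.26 and 7.17 CPM in females, with a litter 3 value of -0.96 (SE 0.16, adjusted p = 0.00107). Because 69.95% of the windows of its longest transcript also occur in the neighbour Gse1, the count of Gins2 is uncertain. Mcm10 changed by -1.03 (SE 0.22, adjusted p = 0.00523), Cdc45 by -0.83 (SE 0.16, adjusted p = 0.00250) and Gins3 by -0.79 (SE 0.23, adjusted p = 0.0216). Gins4 passed in neither litter, with 17.4, 18.7, 17.5 and 19.9 CPM in males and 16.5, 17.7, 16.6 and 18.6 CPM in females, a litter 3 value of -0.08 (SE 0.08, adjusted p = 0.475) and a litter 1 value of -0.10 (SE 0.08, adjusted p = 0.439). The level per length of Gins4 was 13.2 ± 0.845 CPM per kb (SD, n = 8), against 5.35 ± 1.90 for Gins1, 1.30 ± 0.382 for Gins3 and 2.01 ± 0.674 for Gins2, each per kb of the longest transcript. For Gins2 that transcript has 3900 bases, most of them shared with Gse1, so its level per length is uncertain too.

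Polymerase and primase genes were lower in litter 3 in 8 of 8 cases and higher in litter 1 in 6. Pold1 (chr7:44532744-44548815), the catalytic subunit of polymerase delta, which copies mainly the lagging strand, had 26.5, 22.1, 13.7 and 21.3 CPM in males and 28.9, 27.9, 14.7 and 22.3 CPM in females. Its change in litter 3 was -0.79 (SE 0.09, adjusted p = 7.60e-05). Pole (chr5:110286319-110337468), the catalytic subunit of the leading-strand polymerase epsilon, had 15.9, 11.8, 5.81 and 11.9 CPM in males and 15.4, 15.4, 6.19 and 9.73 CPM in females. In litter 3 it changed by -1.14 (SE 0.15, adjusted p = 1.84e-04), and the litter 3 libraries lay below the other 6 for both genes. Pole2, its second subunit, had the lowest log2 fold change of all members, -1.32 (SE 0.25, adjusted p = 0.00247). Prim1 and Prim2, the primase that lays down RNA primers, changed by -1.06 (SE 0.15, adjusted p = 3.33e-04) and -0.68 (SE 0.23, adjusted p = 0.0400). Pola1 and Pola2, of the polymerase that extends those primers, changed by -0.61 (SE 0.12, adjusted p = 0.00243) and -0.37 (SE 0.09, adjusted p = 0.0121). Pold2, an accessory subunit of polymerase delta, had 26.2, 20.9, 19.98 and 26.00 CPM in males and 24.99, 23.7, 20.4 and 23.4 CPM in females. Litter 3 was lowest there too, at -0.26 (SE 0.09, adjusted p = 0.0454), a call lost in 11 of 18 alternatives, with adjusted p-values from 0.0210 to 0.247.

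Of the clamp and its 5 loader subunits, 4 were lower in litter 3, with a median log2 fold change of -0.34. Pcna, the sliding clamp, had the highest level per length of the members at 30.1 ± 5.46 CPM per kb (SD, n = 8), and 58.3, 40.2, 34.5 and 51.8 CPM in males and 53.2, 47.4, 38.8 and 40.8 CPM in females. In litter 3 it changed by -0.40 (SE 0.10, adjusted p = 0.0140). A pseudogene, Pcna-ps2, shares 17.8% of its windows. Among the 5 loader subunits, Rfc4 had 16.5, 13.4, 8.11 and 15.3 CPM in males and 13.6, 11.8, 8.94 and 12.4 CPM in females, and Rfc5 12.03, 11.3, 6.59 and 10.4 CPM and 11.2, 9.39, 7.63 and 9.65 CPM. In litter 3 they changed by -0.70 (SE 0.12, adjusted p = 0.00115) and -0.59 (SE 0.13, adjusted p = 0.00486). The call for Rfc5 was lost without the male of litter 3 (range over 18 alternatives 0.000111 to 0.135). Rfc1, the large subunit, had 49.2, 46.2, 46.1 and 55.7 CPM in males and 46.8, 43.9, 47.6 and 47.2 CPM in females, with litter 3 inside the range of the rest and a litter 3 value of -0.04 (SE 0.07, adjusted p = 0.730). Rfc2 was lower, at -0.28 (SE 0.08, adjusted p = 0.0178). Lat2 shares 17.5% of the windows of Rfc2. Rfc3 had -0.22 (SE 0.11, adjusted p = 0.166), which did not pass.

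Strand maturation and chromatin assembly genes were lower in litter 3 in 6 of 7 cases. Fen1, the nuclease that trims Okazaki fragments, had 14.9, 10.7, 6.98 and 11.7 CPM in males and 13.2, 12.1, 7.42 and 9.06 CPM in females, with a litter 3 value of -0.72 (SE 0.13, adjusted p = 0.00227). Chaf1a, the large subunit of the factor that puts histones on new DNA, had 11.8, 8.02, 5.72 and 9.32 CPM in males and 10.2, 11.5, 5.36 and 7.59 CPM in females, with a litter 3 value of -0.80 (SE 0.17, adjusted p = 0.00503). For both, litter 3 held the lowest values of all. Much of their annotated sequence overlaps other genes, 79.7% of windows with Gm10143 and 46.3% with Ubxn6, so both counts are uncertain. The Fen1 call was lost without the male of litter 3 (range over 18 alternatives 6.36e-07 to 0.0514). Lig1, the ligase that joins the fragments, changed by -0.60 (SE 0.14, adjusted p = 0.00805) and Chaf1b by -0.73 (SE 0.17, adjusted p = 0.00923). The 3 subunits of RPA, which coats single strands in replication and in repair, had small log2 fold changes. Rpa2 had 19.4, 15.04, 14.5 and 19.8 CPM in males and 19.4, 16.4, 14.9 and 16.5 CPM in females, with litter 3 lowest by a small margin and a value of -0.27 (SE 0.10, adjusted p = 0.0648). Rpa1 and Rpa3 were lower at -0.27 (SE 0.07, adjusted p = 0.00980) and -0.36 (SE 0.10, adjusted p = 0.0195).

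Deoxynucleotide genes held the member with the smallest p in the litter test and the widest litter range, Rrm2. All 5 were lower in litter 3. Rrm2 (chr12:24708254-24714146), the small subunit of ribonucleotide reductase that is made in S phase, had 68.8, 37.2, 17.3 and 42.5 CPM in males and 57.2, 46.7, 22.7 and 41.02 CPM in females. Both litter 3 libraries lay below every other library and both litter 1 libraries above. Its changes were -1.28 (SE 0.12, adjusted p = 2.64e-05) in litter 3 and 0.96 (SE 0.10, adjusted p = 1.76e-04) in litter 1, and its mean CPM in litter 1 was 3.15 times that in litter 3. Rrm1, the large subunit (chr7:102441695-102469771), had 104, 69.8, 44.7 and 78.7 CPM in males and 91.3, 70.8, 50.6 and 61.4 CPM in females, in the same order. It changed by -0.72 (SE 0.09, adjusted p = 2.33e-04) in litter 3 and 0.67 (SE 0.09, adjusted p = 4.91e-04) in litter 1. With litter 3 left out, litter 1 stayed above litters 2 and 4 by 0.48 (SE 0.08, adjusted p = 0.00439) for Rrm1 and 0.59 (SE 0.10, adjusted p = 0.00548) for Rrm2. Tyms, which makes thymidylate, changed by -0.72 (SE 0.14, adjusted p = 0.00335), and Tk1, the thymidine kinase of dividing cells, by -0.63 (SE 0.12, adjusted p = 0.00198). Dut, which removes dUTP, had 37.5, 26.6, 24.4 and 35.7 CPM in males and 35.3, 33.9, 25.8 and 29.4 CPM in females. It was lower in litter 3 at -0.39 (SE 0.11, adjusted p = 0.0173), a call lost in 3 of 18 alternatives (0.000204 to 0.145).

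**Figure D3:**
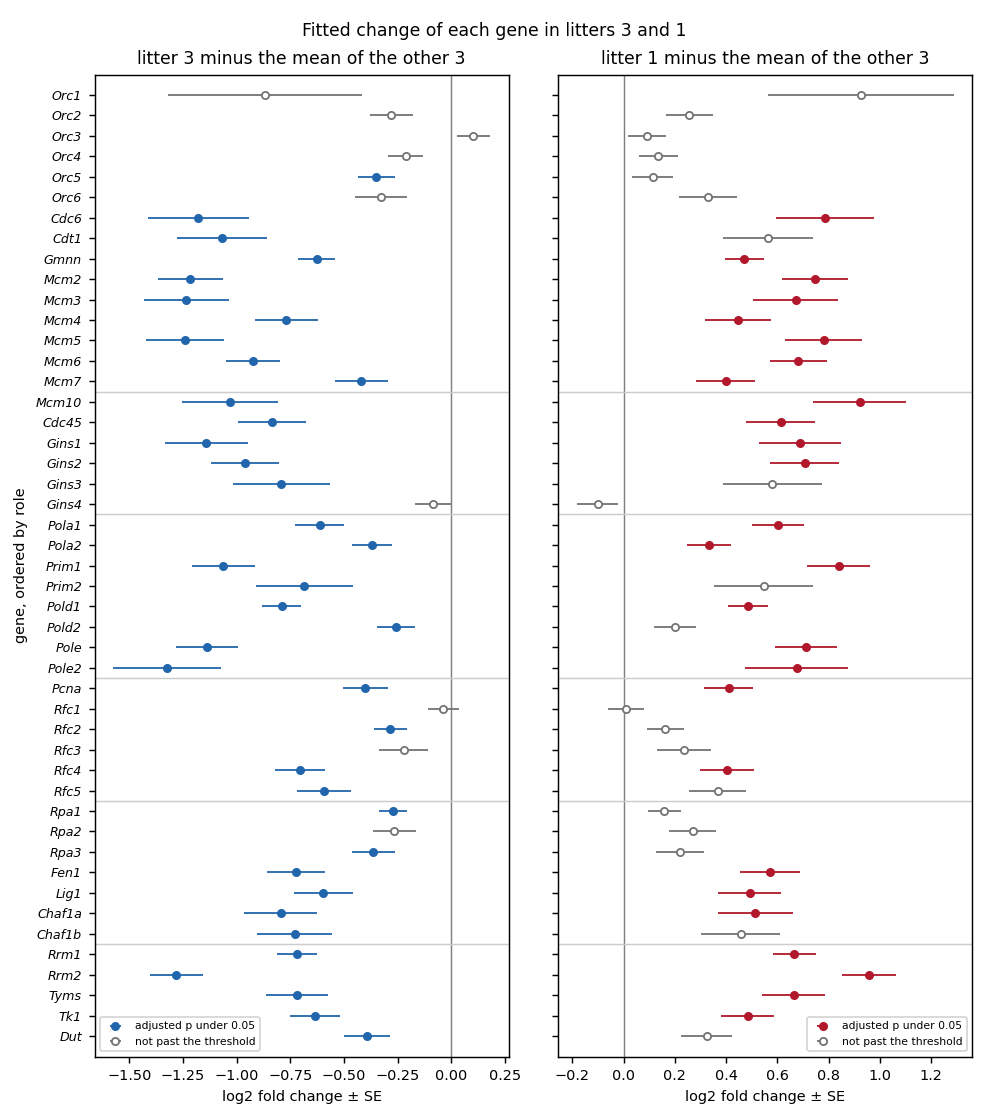
Log2 fold change with its SE for each gene, litter 3 (left) and litter 1 (right) minus the mean of the other 3 litters, with filled points where the adjusted p is under 0.05. On the left all points but Orc3 are below 0, with 38 filled, and on the right all but Gins4 are above 0, with 27 filled.

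Promoters were read next, because members moved together and E2F factors are known to act on many of them. RefSeq promoters on GRCm38.p6, 250 bases before to 50 after the annotated start, were found for 39 members, those without an entry being Gmnn, Mcm4, Gins1, Gins2, Gins4, Prim2, Pole and Rfc2. For genes with more than 1 start the one furthest upstream was used. The E2F letters searched, on both strands, were TTTCCCGC, TTTCGCGC, TTTGCCGC and TTTGGCGC. They were found in 13 of 39 member promoters (33.3%), in 4.19% of 9866 promoters of tested genes and in 2.33% of 27025 promoters of all genes. CCAAT was found in 61.5% of member promoters and 38.8% of those of tested genes, GGGCGG in 74.4% and 65.3%, and TTTGAA in 10.3% and 11.5%, all on both strands.

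The 6 promoters below were chosen to set members with and without these letters side by side, the capitals marking the E2F letters. Mcm6 (chr1:128359656-128359955, minus strand) has 3 matches and Mcm5 (chr8:75109259-75109558, plus strand) has 2. In both genes a pair on opposite strands overlaps by 4 bases. Cdc6 (chr11:98907901-98908200, plus strand) and Pole2 (chr12:69228141-69228440, minus strand) have 1 each. Orc3 (chr4:34614893-34615192, minus strand) has 1 as well, although Orc3 did not pass the litter test. Rrm2 (chr12:24708004-24708303, plus strand), which had the widest litter range, has none in this window.
Mcm6: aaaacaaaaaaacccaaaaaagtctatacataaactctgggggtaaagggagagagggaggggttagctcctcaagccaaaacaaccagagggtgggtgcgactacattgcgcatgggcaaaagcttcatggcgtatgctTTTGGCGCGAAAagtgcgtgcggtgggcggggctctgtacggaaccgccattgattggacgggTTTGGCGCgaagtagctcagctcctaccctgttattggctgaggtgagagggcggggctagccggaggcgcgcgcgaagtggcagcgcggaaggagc
Mcm5: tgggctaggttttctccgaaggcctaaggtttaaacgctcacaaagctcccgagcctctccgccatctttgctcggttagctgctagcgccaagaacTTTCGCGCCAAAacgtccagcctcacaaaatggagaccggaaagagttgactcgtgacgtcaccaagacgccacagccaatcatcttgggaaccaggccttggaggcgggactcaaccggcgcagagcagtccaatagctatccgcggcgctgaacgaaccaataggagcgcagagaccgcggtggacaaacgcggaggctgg
Cdc6: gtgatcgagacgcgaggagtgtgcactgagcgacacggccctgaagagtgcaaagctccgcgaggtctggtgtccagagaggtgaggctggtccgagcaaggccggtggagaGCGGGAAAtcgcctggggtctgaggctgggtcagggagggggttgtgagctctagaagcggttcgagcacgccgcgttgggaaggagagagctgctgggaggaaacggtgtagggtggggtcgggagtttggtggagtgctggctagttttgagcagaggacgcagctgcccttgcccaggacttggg
Pole2: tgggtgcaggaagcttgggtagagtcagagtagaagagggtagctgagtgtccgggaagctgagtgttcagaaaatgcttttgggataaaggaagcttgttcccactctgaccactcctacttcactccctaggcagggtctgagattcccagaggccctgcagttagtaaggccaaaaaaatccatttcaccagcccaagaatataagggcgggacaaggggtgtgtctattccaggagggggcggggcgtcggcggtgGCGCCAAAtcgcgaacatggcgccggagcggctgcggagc
Orc3: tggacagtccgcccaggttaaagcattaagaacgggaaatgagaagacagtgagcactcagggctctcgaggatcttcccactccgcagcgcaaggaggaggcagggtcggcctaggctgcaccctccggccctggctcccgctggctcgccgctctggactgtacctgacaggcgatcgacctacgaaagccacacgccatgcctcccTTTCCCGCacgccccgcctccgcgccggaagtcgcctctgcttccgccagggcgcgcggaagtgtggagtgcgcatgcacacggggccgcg
Rrm2: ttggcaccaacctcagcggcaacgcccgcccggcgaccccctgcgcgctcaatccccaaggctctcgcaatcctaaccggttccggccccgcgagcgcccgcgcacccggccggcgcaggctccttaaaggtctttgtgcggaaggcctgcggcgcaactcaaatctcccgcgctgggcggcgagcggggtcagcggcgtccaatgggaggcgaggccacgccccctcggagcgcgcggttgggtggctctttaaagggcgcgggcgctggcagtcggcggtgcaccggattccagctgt

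Members with and without these letters overlapped in how they moved. Of the 13 members with a match 10 were lower in litter 3, with a median log2 fold change of -0.87 and a range from -1.32 for Pole2 to 0.10 for Orc3. Of the 26 without a match 21 were lower, with a median of -0.59 and a range from -1.28 for Rrm2 to -0.04 for Rfc1. The median litter range on the log2 scale was 1.20 with a match and 0.75 without, and the litter 1 medians were 0.60 and 0.41. These differences were not tested. Among all tested genes, those with the letters had a median of -0.05 (81 of 413 lower) and those without 0.00 (1446 of 9453 lower). A match is a description of the sequence and not evidence of binding. Nor does the lack of a match show that E2F sites are absent. Only these exact letters were searched, around a single start of each gene.

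**Figure D4:**
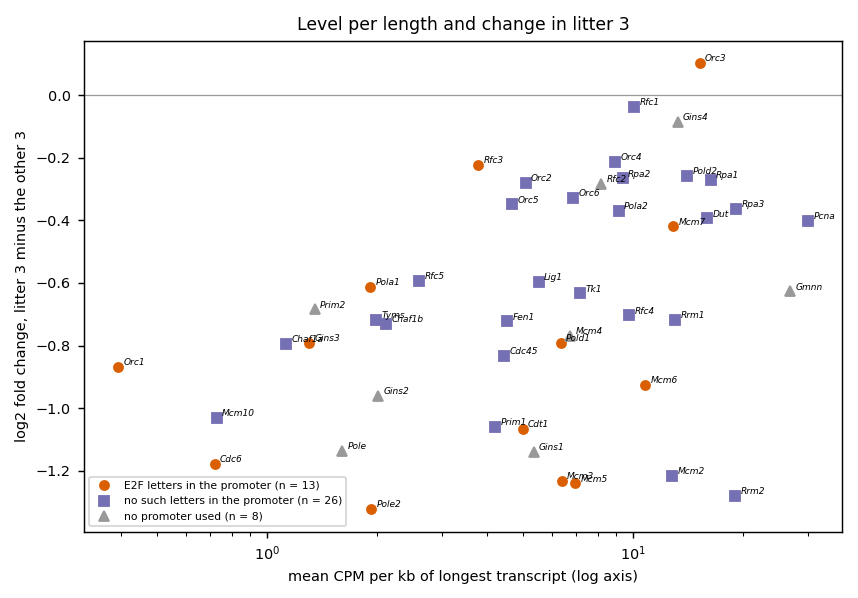
Mean level per length (x axis, CPM per kb of the longest transcript, log axis) against the log2 fold change of litter 3 minus the other 3 litters (y axis), 1 point a gene, marked by E2F letters in the promoter. Members with and without the letters overlap over most of the y axis, and high levels are found both at Rrm2 near the bottom and at Orc3 at the top.

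Levels per length spanned from 0.392 ± 0.197 CPM per kb for Orc1 to 30.1 ± 5.46 for Pcna (SD, n = 8). After Pcna the order was Gmnn at 26.8 ± 5.79, Rpa3 at 19.2 ± 2.68, Rrm2 at 19.00 ± 7.67 and Rpa1 at 16.3 ± 1.65 CPM per kb. This order depends on the litter. Rrm2 had 31.4 and 26.1 CPM per kb in the male and female of litter 1, and Rpa3 21.1 and 21.5. In litter 3 Rrm2 had 7.87 and 10.3 CPM per kb, and Rpa3 14.9 and 16.7. Pcna and Gmnn overlap in their spread, as do Rpa3, Rrm2 and Rpa1. At the low end stood Cdc6 at 0.719 ± 0.268, Mcm10 at 0.729 ± 0.288 and Chaf1a at 1.13 ± 0.317 CPM per kb. The length used for Chaf1a, 7698 bases, includes the stretch shared with Ubxn6, so its level per length is uncertain. Within the ring of 6 MCM proteins, levels ran from 6.38 ± 2.42 for Mcm3 to 12.9 ± 2.53 for Mcm7.

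Other replication and cell cycle genes were mostly lower in litter 3 as well. Of 37 further replication factors, 19 were lower (background 14.8%) and 1 higher (background 13.6%) in litter 3, with a litter 3 median of -0.42. In litter 1, 22 were higher (background 7.86%) and 1 lower (background 5.41%). Top2a, the topoisomerase that untangles copied DNA, had 104, 55.7, 14.7 and 41.01 CPM in males and 84.9, 53.1, 22.1 and 42.99 CPM in females, with a litter 3 value of -1.73 (SE 0.14, adjusted p = 5.59e-06). Dbf4, the partner of the kinase that fires origins, changed by -1.25 (SE 0.14, adjusted p = 7.86e-05), and Dna2, a nuclease of Okazaki maturation, by -0.82 (SE 0.14, adjusted p = 0.00133). The 1 gene that was higher was Pold4, a small subunit of polymerase delta, at 0.46 (SE 0.15, adjusted p = 0.0353). Among 10 S-phase cyclins, kinases and E2F genes, 8 were lower (background 14.8%) and 1 higher (background 13.6%) in litter 3. Ccna2, the S-phase cyclin, changed by -1.79 (SE 0.14, adjusted p = 6.16e-06), Cdk1 by -1.12 (SE 0.16, adjusted p = 3.93e-04), E2f2 by -1.37 (SE 0.26, adjusted p = 0.00258) and E2f1 by -0.95 (SE 0.19, adjusted p = 0.00285). All 22 mitosis genes were lower in litter 3 (background 14.8%) and higher in litter 1 (background 7.86%), with a litter 3 median of -1.86. In litter 2, where no member passed, 10 of these 22 were higher (background 3.3%), with a median of 0.49. Mki67, the common marker of cycling cells, had 128, 67.7, 22.3 and 55.02 CPM in males and 108, 79.1, 30.9 and 60.4 CPM in females, with a litter 3 value of -1.60 (SE 0.12, adjusted p = 3.38e-06), while Cenpe, Cenpf and Kif20a changed by -2.26, -2.01 and -2.11. Without litter 3, litter 1 was higher for 9 of the 37 further replication factors and 3 of the 10 S-phase genes (background 4.13%). It was also higher for 21 of the 22 mitosis genes and 4 of the 30 nucleotide synthesis genes described next.

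Of 30 genes of nucleotide synthesis outside the S-phase enzymes, 10 were lower in litter 3 (background 14.8%) and 4 higher (background 13.6%). In litter 1, 7 were higher (background 7.86%) and 1 lower (background 5.41%), so that the calls in the opposite direction were near or under the background share. Their litter 3 median was -0.11. Dtymk, the kinase that follows thymidylate synthase, was lower at -0.45 (SE 0.08, adjusted p = 0.00110), and Mthfd2, an enzyme of mitochondrial folate metabolism, by -1.21 (SE 0.24, adjusted p = 0.00341). Prps2, which makes the ribose precursor of nucleotides, was higher by 0.58 (SE 0.08, adjusted p = 2.36e-04). Rrm2b encodes the reductase subunit used outside S phase. It had 34.8, 35.98, 35.2 and 32.3 CPM in males and 35.5, 33.7, 33.2 and 27.8 CPM in females, with litter 3 among the others and a value of 0.04 (SE 0.07, adjusted p = 0.703), whereas its S-phase counterpart Rrm2 was at 41.2% of the other litters.

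Sex was the study's own grouping, and no member passed the test between males and females. In edgeR's quasi-likelihood test 0 of 47 members had an adjusted p under 0.05 (background 0.0436%), 0 had an unadjusted p under 0.05 (background 2.22%), and DESeq2 also called 0. Log2 fold changes of males minus females ran from -0.29 for Orc1 to 0.23 for Gins1, with a median of 0.03. The 3 members with the smallest p-values were Orc4 at 0.18 (SE 0.10, unadjusted p = 0.107), Orc3 at 0.11 (SE 0.09, unadjusted p = 0.249) and Orc5 at 0.14 (SE 0.13, unadjusted p = 0.277). Orc4 had 39.7, 37.3, 33.2 and 44.03 CPM in the males of litters 1 to 4 and 37.8, 33.4, 31.6 and 33.6 CPM in the females, each male being above the female of its litter although the groups overlap. For Orc5 the values were 18.9, 18.7, 15.2 and 20.9 CPM and 18.04, 16.4, 13.9 and 18.1 CPM, again with each male above its sister. For Rrm2 the mean over males was 41.4 ± 21.2 CPM and that over females 41.9 ± 14.4 CPM (SD, n = 4). When each male was set against the female of its own litter (the litter block), 0 members passed (background 0.211%), the lowest adjusted p was 0.373, and 3 had an unadjusted p under 0.05 (background 11.6%), Orc4, Pola1 and Pold1.

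Within litters the sign of the sex difference changed. The male was above the female for 37 of 47 members in litter 1, 11 in litter 2, 18 in litter 3 and 45 in litter 4, where all genes tested gave 51.0%, 49.7%, 49.6% and 52.2%. The male of litter 4 had 18.5% mitochondrial counts, against 13.4% to 15.2% in the other 7 libraries, and the lowest TMM factor, 0.951. Between the pups of litter 4 fibroblast markers summed to 227 CPM in the male and 108 CPM in the female, with a median difference of 0.98 on the log2 scale. There 1 of 8 cardiomyocyte markers was higher in the male. Fibroblast medians were above 0 in litters 1 to 3 as well, at 0.44, 0.60 and 0.59. Endothelial medians, male minus female, were -1.85, -0.82, -0.14 and 0.25 in litters 1 to 4. The part of these in the member counts, such as the 45 of 47, was not tested. Median differences of members, male minus female on the log2 scale, were 0.10, -0.20, -0.08 and 0.29. Mcm3 had 28.6, 20.3, 11.4 and 28.96 CPM in males and 29.5, 29.3, 10.1 and 16.99 CPM in females of litters 1 to 4, so that the male of litter 4 was above its sister while the male of litter 2 was below. Of the members, 5 (10.6%) had the same direction in all 4 litters, against 20.3% of all genes tested. These differences within a litter rest on 1 library each and were not tested.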

How the data were processed

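RNA of purified cardiomyocytes from 8 mouse hearts was measured. Per the labels' protocols, libraries were made with a stranded kit for total RNA and read from one end. The labels also name the molecule as poly(A) RNA, and this conflict is unresolved. The authors deposited raw counts per gene symbol in 1 table with 1 column for each sample. The submitters' processing notes name STAR 2.7.3a and mm10. The counting program, its annotation and its strand setting are not given in the sources used here.

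Counts were analysed in R 4.3.3 with edgeR 4.0.16 and limma 3.58.1. The filterByExpr filter, given the sexes as groups, left 13771 genes, which were scaled with TMM. Sex was tested without a litter term (6 residual degrees of freedom). Litters were tested in a model with sex (3 residual degrees of freedom), jointly and each against the mean of the other 3. Adjusted p-values are Benjamini-Hochberg over all genes tested, with a threshold of 0.05. SE is the size of the log2 fold change over the square root of F. Variance shares use log2 CPM with a prior count of 2. DESeq2 1.42.0 was an alternative. Transcript lengths and shared windows come from GENCODE M21 (GRCm38, the assembly of mm10), and promoters from RefSeq.

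Members, gene lists, role groups and tests were chosen with earlier results of these data known. Values in every library are given for the 2 members with the smallest and the 1 with the largest p in the litter test in each of 6 role groups, and for the 3 members with the smallest p for sex. A few further members, Cdc6, Orc1, Pcna and Mcm3, were given in full after their values were seen. Of each related list, the 3 genes with the smallest litter p were named, with Mki67, Ccna2, E2f1 and Rrm2b, and Pold4 was named after its value was seen. The labels state that a sample's number is its litter, which pairs its pups. With sex means taken out, the correlation across genes was 0.506, 0.503, 0.696 and 0.367 within litters 1 to 4 and -0.482 to 0.270 between litters. The scripts were tested on simulated data. The alternatives were other scalings, other filters, DESeq2, thinning, no sex term, the litter block, and leaving out libraries or litters.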

Additional observations from a re-analysis of the deposited data

Results flagged for a closer look

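In each sex, the highest and the lowest of the 4 libraries were compared with the remaining 3. With all 47 members and the medians of groups of members, this made 108 groups of 4. Chance would single out about 5.4 of them, and 1 was found. Orc2 in the female of litter 1 had 19.6 CPM, while the other 3 females lay close together at 16.8 to 17.1 CPM. The males of litters 1 to 4 had 21.5, 19.3, 14.6 and 19.3 CPM, so that the female of litter 1 is within the range of the males.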

How the results depend on the processing

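Over all alternatives, 0 of 1400 values of named members changed direction with a call, 82 lost a call and 30 gained one. Without litter 3, 6 members passed the litter test, 7 were higher in litter 1 and 3 (Pola1, Pole and Tyms) were lower in litter 4. Medians there were 0.29 in litter 1, -0.14 in litter 2 and -0.16 in litter 4, and the median litter share was 57.1%. The same fits without litter 1, 2 or 4 were chosen after the data were seen. Without litter 1, 9 members were higher in litter 2 (median 0.29) and 3 higher in litter 4. Without litter 2 the median in litter 1 was 0.65, and without litter 4, 2 members were higher in litter 2. In litter 2, 1 member was higher with library size alone (3.84% of all genes) and 6 without a filter (3.68% of all genes), against 0. Leaving out single libraries gave 20 to 36 members in the litter test (21.4% to 29.6% of all genes), 4 to 32 higher in litter 1 (1.62% to 8.26% of all genes, member median 0.43 to 0.56), 0 to 4 higher in litter 2 (0.953% to 3.89%, median -0.058 to 0.26), 20 to 40 lower in litter 3 (6.96% to 14.4%, median -0.73 to -0.57), 0 to 1 higher in litter 4 (0.671% to 3.76%, median -0.095 to 0.26) and 0 to 0 by sex (median -0.10 to 0.19). In litter 2, 4 members were higher without its male (1.45% of all genes), and 4 without the male of litter 4 (3.44%). The lone sample of a litter was then assumed to vary like the others. Apart from the smaller number of samples, the cause of these shifts was not tested. The litter block (replicate block) gave 0 members by sex with a median of 0.03 and changed no call of a member. With library size alone, both libraries of litter 3 lay below the other 6 for 31 members (12.9% of all genes), and both of litter 1 above for 27 (9.14% of all genes). Each litter has 2 libraries, and counts were lowest for Orc1, at 9 to 48 a library.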

Other observations

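Of 30 other nucleotide synthesis genes, 4 were higher in litter 3, a share close to the 13.6% of all genes tested. They were Tk2, Shmt2, Ctps2 and Prps2, named here after their values were seen except for Prps2. Tk2, the mitochondrial thymidine kinase, had 7.86, 9.02, 11.5 and 11.05 CPM in the males of litters 1 to 4 and 7.64, 9.62, 14.3 and 9.60 CPM in the females, a change of 0.50 (SE 0.12, adjusted p = 0.00913) in edgeR's quasi-likelihood test. Tk1, the kinase of dividing cells, went the other way, at -0.63 (SE 0.12, adjusted p = 0.00198). Shmt2, a mitochondrial folate enzyme, had 46.6, 48.5, 60.99 and 48.7 CPM in males and 49.6, 60.7, 60.4 and 54.1 CPM in females, with a litter 3 value of 0.25 (SE 0.07, adjusted p = 0.0233). Ctps2, which makes CTP, had 33.3, 35.9, 41.6 and 33.3 CPM and 33.4, 32.1, 38.8 and 31.4 CPM, with a litter 3 value of 0.28 (SE 0.07, adjusted p = 0.0102). E2f3 was the 1 gene of 10 in the S-phase list that was higher (background 13.6%), by 0.27 (SE 0.09, adjusted p = 0.0452). E2f1 and E2f2 of the same family were lower at -0.95 and -1.37 on the log2 scale.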
